A study of Mus musculus with 2 samples.

Results

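The Cyp1 genes and the aryl hydrocarbon receptor (AHR) pathway were followed in mouse liver with and without Pgrmc1, through 7 genes: Cyp1a1, Cyp1a2, Cyp1b1, Ahr, Arnt, Ahrr and Tiparp. They were taken by symbol from a table of 24054 genes, and all 7 were listed there. Of the 7, 5 had a mean of 1 TPM or more over both libraries, and Cyp1b1 and Ahrr lay below it. TPM is a level per transcript length, scaled to a nearly common library total (1005325 in KO and 994702 in WT).

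Each genotype was sequenced as 1 library, made from equal masses of liver RNA (2.5 μg per mouse) of 5 mice pooled before library preparation. All mice were male, labelled as strain C57BL/6 and 8 to 12 weeks old, and the floxed line was made in the substrain C57BL/6N. The KO pool came from Pgrmc1 -/Y mice, in which exons 1 and 2 of this X-linked gene were removed from the whole body by crossing a floxed allele to Sox2-Cre mice, and the WT pool came from wild-type mice. Whether the wild-type mice carried the Cre transgene is not given in the sources used here. Since the mice were pooled, the spread between animals was not measured, no difference below has a replicate check, and no p-value was computed.

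AHR is a receptor of the bHLH-PAS class that waits in the cytosol with HSP90 and its co-chaperones until a ligand such as dioxin, a polycyclic aromatic hydrocarbon or a tryptophan derivative binds it. It then enters the nucleus, pairs with ARNT and binds DNA elements with the core GCGTG, where it induces the Cyp1 genes together with Ahrr and Tiparp, whose products restrain it. Cyp1a2 differs from its relatives in that hepatocytes around the central vein express it without an inducer, whereas Cyp1a1 and Cyp1b1 stay low in unexposed liver. Pgrmc1 has its own tie to this pathway, because rat Pgrmc1 was first described as 25-Dx, a transcript induced by dioxin in liver.

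The promoters of the 5 members that AHR is known to induce are shown because they differ in whether and how often they hold the letters GCGTG. Each sequence is the 250 bases before the start site that the RefSeq promoter table uses (GRCm38.p6), read 5′ to 3′ on the strand of the gene. Capitals mark GCGTG or its reverse complement CACGC, and also TATAAA, which was searched on the strand of the gene only. They mark letters only, and whether AHR binds any of these places was not tested.
Cyp1a1 (chr9:57697363-57697612, plus strand): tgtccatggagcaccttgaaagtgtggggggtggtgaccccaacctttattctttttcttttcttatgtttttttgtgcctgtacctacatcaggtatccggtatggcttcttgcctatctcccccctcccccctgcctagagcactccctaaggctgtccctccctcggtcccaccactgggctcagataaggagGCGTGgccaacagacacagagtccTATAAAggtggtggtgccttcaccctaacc
Cyp1a2 (chr9:57683656-57683905, minus strand): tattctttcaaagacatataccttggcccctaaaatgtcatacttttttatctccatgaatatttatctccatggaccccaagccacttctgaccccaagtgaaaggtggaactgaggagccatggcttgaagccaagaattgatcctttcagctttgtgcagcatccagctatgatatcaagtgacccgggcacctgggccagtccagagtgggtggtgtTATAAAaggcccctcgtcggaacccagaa
Cyp1b1 (chr17:79715062-79715311, minus strand): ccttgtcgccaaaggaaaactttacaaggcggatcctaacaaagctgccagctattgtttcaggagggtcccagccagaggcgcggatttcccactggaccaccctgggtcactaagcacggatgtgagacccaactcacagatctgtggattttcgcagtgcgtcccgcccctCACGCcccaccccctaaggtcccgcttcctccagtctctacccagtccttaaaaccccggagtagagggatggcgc
Ahrr (chr13:74292332-74292581, minus strand): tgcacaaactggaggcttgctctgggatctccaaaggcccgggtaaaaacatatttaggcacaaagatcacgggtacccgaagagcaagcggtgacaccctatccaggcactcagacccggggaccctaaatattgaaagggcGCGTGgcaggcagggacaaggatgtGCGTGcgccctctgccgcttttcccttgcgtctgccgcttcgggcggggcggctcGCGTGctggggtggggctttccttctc
Tiparp (chr3:65528197-65528446, plus strand): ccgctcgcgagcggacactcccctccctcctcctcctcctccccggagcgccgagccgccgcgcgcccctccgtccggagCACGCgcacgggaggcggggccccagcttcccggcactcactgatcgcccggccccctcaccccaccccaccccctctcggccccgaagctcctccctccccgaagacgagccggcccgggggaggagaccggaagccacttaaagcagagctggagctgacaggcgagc

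The core was found in 5 of the 6 member windows: once each in Cyp1a1, Cyp1b1, Arnt and Tiparp and 3 times in Ahrr. Over 32851 windows of the same length, 28.2% held it at least once and 2.77% held it 3 times or more. The longer form TNGCGTG was found in 1 member window, that of Ahrr, and in 4.10% of all windows. The window of Cyp1a2 held no GCGTG, which says only that these letters are not in these 250 bases. Both Cyp1a genes held TATAAA, with its first base 30 and 29 bases before the start site, and 7.59% of all windows held it. Their windows had 3 CpG dinucleotides each, against 17 in Ahrr and 28 in Tiparp. Of the 7 members, Ahr has no window in the table used.

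Cyp1a1 and Cyp1a2 lie head to head on mouse chromosome 9. In GRCm38, RefSeq places Cyp1a1 at 57687928 to 57703824 on the plus strand and Cyp1a2 at 57676937 to 57683655 on the minus strand, which leaves 4273 bases between their first annotated bases. Cyp1a1 has 2 annotated start sites, and the window shown precedes the inner site at 57697613, which lies 9685 bases inside the annotated span and 13958 bases from the start of Cyp1a2. The Arnt window likewise precedes a start site 23 bases inside its span. Cyp1b1 is on chromosome 17 (79706940 to 79715061, minus strand). Ahr is on chromosome 12 (35497979 to 35534989, minus strand) and Ahrr on chromosome 13 (74211118 to 74292331, minus strand). Arnt (95434367 to 95497240) and Tiparp (65528447 to 65555518) share chromosome 3, both on the plus strand.

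The transcript levels of the 7 members spanned more than 3 orders of magnitude, and the order of the genes was the same in both pools. In WT liver the order was Cyp1a2, Ahr, Arnt, Tiparp, Cyp1a1, Cyp1b1 and Ahrr. The plot of levels shows that no neighbours in this order had overlapping 95% counting intervals (exact Poisson intervals from estimated reads) within a pool, with the exception of Cyp1b1 and Ahrr in KO. These intervals cover counting error only and not the spread between mice.

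**Figure D1:**
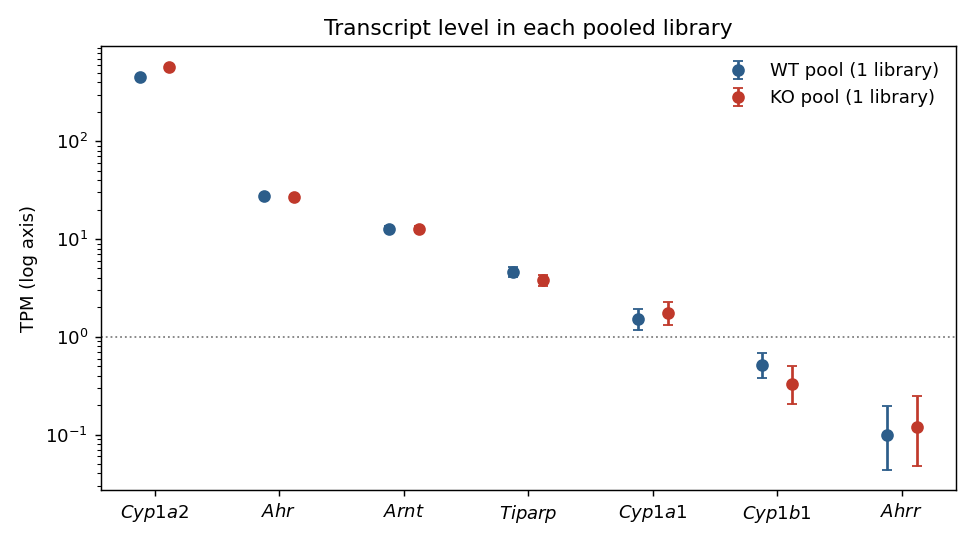
TPM of each member on a log axis in the WT pool (blue) and the KO pool (red), 1 library each; bars are 95% Poisson counting intervals and the dotted line marks 1 TPM. Cyp1a2 stands at 454.52 TPM in the WT pool and 576.97 TPM in the KO pool, and Ahrr at 0.10 and 0.12 TPM.

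Pgrmc1 itself, the deleted gene, stood at 0.68 TPM in the KO pool and 949.49 TPM in the WT pool, so the libraries carried the genotype of their labels. The albumin transcript stood at 47242 TPM in the KO pool and 49729 TPM in the WT pool, and none of 8 hepatocyte markers was past the thresholds below. The files hold about 22086692 estimated reads on genes in KO and 29710419 in WT.

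To ask whether loss of Pgrmc1 altered these transcripts, 1 TPM was added to both levels and the log2 ratio of KO over WT was taken, which shrinks differences between low levels. A gene counted as up at a fold of at least 1.4 and as down at a fold of at most 0.6. These thresholds are not symmetric on the log2 scale (0.49 and -0.74), so calls down were also counted at the mirror of 1.4, a fold of 0.714. None of the 7 members was past any of these thresholds. Cyp1b1 and Ahrr were so low that, with 1 TPM added, even a fall to 0 would not have reached 0.6. For Ahrr it would not have reached 0.714 either, so these genes could not be called down there. Of all 11623 genes whose mean reached 1 TPM, 1.09% were up and 0.301% were down (1.02% at the mirror). A count of 0 among the 5 members that reached that mean is close to this background. Of the 6235 genes whose mean reached 10 TPM, among them Cyp1a2, Ahr and Arnt, 0.77% were up and 0.273% were down.

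Cyp1a2 encodes the enzyme that demethylates caffeine and activates aromatic amines. Its level was 454.52 TPM in the WT pool and 576.97 TPM in the KO pool. It was 1.27-fold higher in the KO pool, a log2 difference of 0.34, and the 95% interval of the ratio of the authors' library means (Clopper-Pearson, from 14003 estimated reads in KO and 14745 in WT) was 1.25 to 1.31. Counting error thus leaves the difference above 1 and below 1.4. Among the 1013 genes whose mean reached 100 TPM, 97.0% had a lower log2 difference than Cyp1a2, and the 5th and 95th percentiles of those genes were -0.20 and 0.22.

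Cyp1a1, the inducible hydrocarbon hydroxylase, stood at 1.52 TPM in the WT pool and 1.75 TPM in the KO pool. The ratio of library means was 1.16 with an interval of 0.802 to 1.66, which holds both no difference and the threshold of 1.4. Cyp1a2 exceeded Cyp1a1 by 299-fold in WT and 330-fold in KO. The Cyp1a genes share 38 windows of 100 bases with each other and with no other gene, 1.41% of the windows of Cyp1a1 and 1.99% of those of Cyp1a2. If the reads of Cyp1a2 were spread evenly, about 293 of them in WT and 278 in KO would lie in those windows, against 68.8 and 59.3 estimated reads for Cyp1a1. Reads were paired and the mate can tell the genes apart, but the level of Cyp1a1 is uncertain for this reason, and its share of misassigned reads was not tested.

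Cyp1b1, which oxidizes estrogens and retinoids and is made mainly outside hepatocytes, was at 0.51 TPM in the WT pool and 0.33 TPM in the KO pool. Its log2 difference was -0.18 with 1 TPM added, -0.50 with 0.1 TPM added and -0.64 with the authors' library means. On 22 estimated reads in KO and 47 in WT, the ratio of means was 0.632 with an interval of 0.363 to 1.07. On this ratio, without 1 TPM added, values of 0.6 and of 1 both lay within counting error. With 1 TPM added, as in the calls, Cyp1b1 had an interval of -0.34 to 0.05 on the log2 scale, which reached neither threshold. Beside it, 9 of 11 stellate cell markers lay below 0, with a median of -0.14 and a summed level of 296.3 TPM in the KO pool and 329.21 TPM in the WT pool, and 0 of 11 were past a threshold of 1.4 or 0.6. Their part in the value of Cyp1b1 was not tested, and in bulk liver fewer cells of a type and less RNA per cell cannot be told apart.

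**Figure D2:**
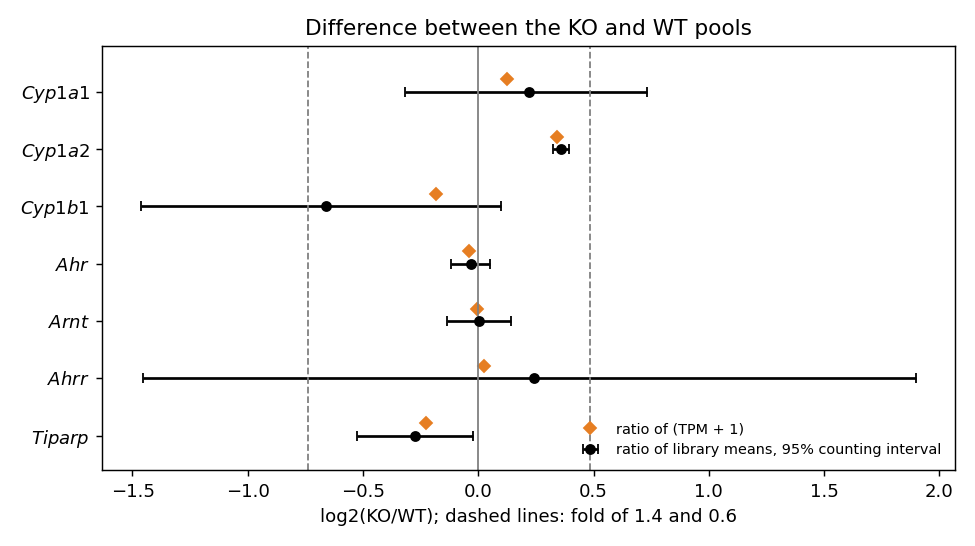
Difference between pools for each member on the log2 scale: black points are the ratio of library means with 95% Clopper-Pearson counting intervals, orange diamonds the ratio of (TPM + 1), and dashed lines folds of 1.4 and 0.6. In the main setting these folds were applied to the diamonds and not to the black points. The interval of Cyp1a2 runs from 0.33 to 0.39, and those of Cyp1a1, Cyp1b1, Ahr, Arnt and Ahrr hold 0.

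The receptor and its partner were close to equal in both pools. Ahr stood at 27.61 TPM in the WT pool and 26.78 TPM in the KO pool. The ratio of library means was 0.977 (interval 0.922 to 1.04). Arnt, which AHR needs for DNA binding and which also serves the hypoxia factors, stood at 12.78 TPM in the WT pool and 12.71 TPM in the KO pool, with an interval of 0.911 to 1.10 for the ratio of means. For Ahr and Arnt both thresholds lay outside the counting interval. Ahr exceeded Arnt by 2.16-fold in WT and 2.11-fold in KO.

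Ahrr encodes the repressor that competes with AHR for ARNT. It was listed at 0.10 TPM in the WT pool and 0.12 TPM in the KO pool, on 8 and 7 estimated reads. The interval of its ratio, 0.365 to 3.73, holds both thresholds, so no difference was detectable at this depth. Ahr exceeded it by 276-fold in WT and 223-fold in KO.

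Tiparp encodes a mono-ADP-ribosyltransferase that AHR induces and that marks AHR for degradation. It stood at 4.61 TPM in the WT pool and 3.79 TPM in the KO pool. The log2 difference was -0.23, and the ratio of library means was 0.828 with an interval of 0.694 to 0.985 (346 and 212 estimated reads). Tiparp was thus the member other than Cyp1a2 whose counting interval did not hold 1, and it lay on the opposite side. The share of all genes with such an interval was not counted. Abundant genes can have one at a very small difference, as Apoa1 did (1.005 to 1.02). Of all genes tested, 7.56% had a lower log2 difference than Tiparp, and their 5th and 95th percentiles were -0.27 and 0.27. The exons of Tiparp overlap those of 4931440P22Rik on the opposite strand, which was listed at 0.13 TPM in the WT pool and 0.08 TPM in the KO pool. Those of Ahr likewise overlap Gm48236 on the opposite strand, for which no level was listed.

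**Figure D3:**
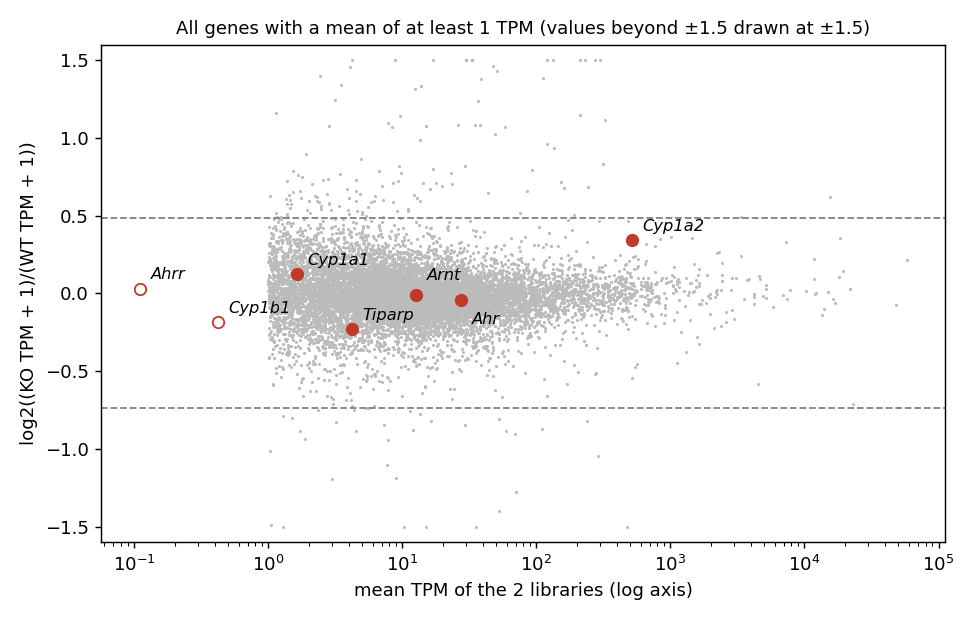
Mean TPM on a log axis against log2((KO TPM + 1)/(WT TPM + 1)) for 11623 genes (grey), with the members in red (open circles: below 1 TPM) and dashed lines at folds of 1.4 and 0.6. Cyp1a2 lies high among the genes of its level at 0.34, with some of those genes above it, and the other members lie between -0.23 and 0.13.

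Among P450 genes, which number 100 by symbol in the table, Cyp1a2 ranked 12th by TPM in WT and 8th in KO. It made up 2.46% of summed P450 TPM in WT and 2.76% in KO. In WT its counting interval (447 to 462 TPM) lay below that of Cyp27a1 and above that of Cyp2a12. In KO it (567 to 587 TPM) lay below that of Cyp2f2 and above that of Cyp2d26. Cyp1a1 ranked 60th in WT and 59th in KO, and Cyp1b1 65th and 67th, and the intervals of these genes overlapped those of their neighbours in order.

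The P450 genes (10 TPM or more) whose log2 difference was nearest to that of Cyp1a2 over the 2 libraries were Cyp2c29 (0.35), Cyp2c50 (0.32) and Cyp4a32 (0.42). Of the 58 P450 genes outside the Cyp1 family that passed the filter of 1 TPM, 11 were up (19.0%) and 1, Cyp2a4, was down. Of all genes tested, 1.09% were up and 0.301% were down. Among the 11 genes up, Cyp2c55 lay at the threshold of 1.4 (0.49 on the log2 scale). Cyp3a11 (0.49) and Cyp2c54 (0.50) were only just past it. At the mirror of 1.4, applied after seeing the data, 2 of the 58 were down, Cyp2a4 and Cyp2a5, beside 1.02% of all genes. A larger log2 difference than that of Cyp1a2 was found for 16 of the 58 genes, and the median of the 58 was 0.06. The most abundant of them, Cyp2e1, differed by 0.11, Cyp3a11 by 0.49, Cyp2d9 by 0.10 and Cyp2f2 by -0.13 on the log2 scale. Whether the Cyp1 genes differ from other P450 genes could not be tested with 1 library per genotype.

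**Figure D4:**
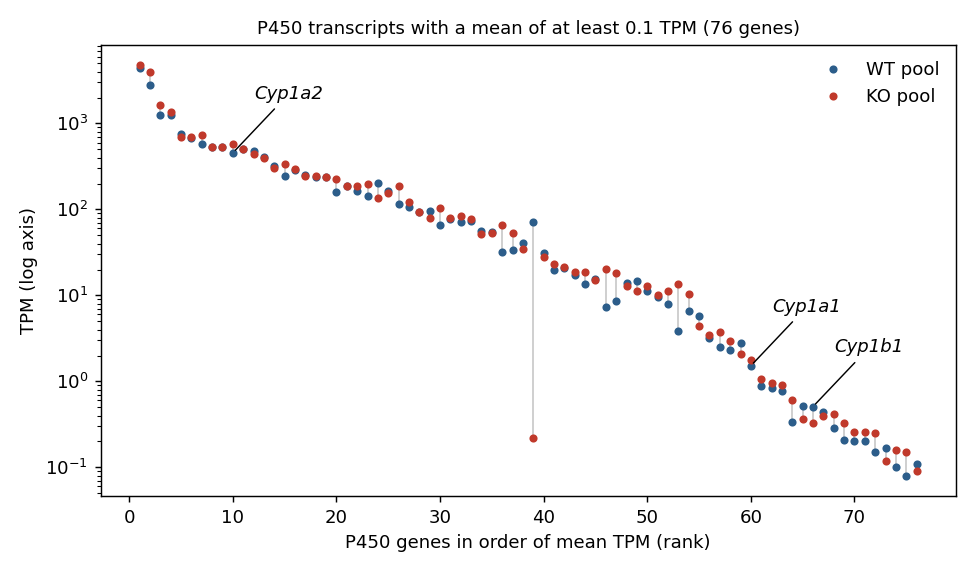
TPM on a log axis of the 76 P450 genes whose mean reached 0.1 TPM, ordered by mean, in the WT pool (blue) and the KO pool (red). Cyp1a2 is among the abundant P450 transcripts in both pools, while Cyp1a1 (1.52 and 1.75 TPM) and Cyp1b1 (0.51 and 0.33 TPM) are near the low end.

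The wider pathway was described with lists written from general knowledge, each by its counts and its median beside those of all genes tested. Of all genes tested, 1.09% were up, 0.301% were down and 45.8% lay above 0, with a median of -0.01. The cytosolic complex held 4 measured genes, 0 of them past a threshold and 4 of 4 below 0, with a median of -0.12. Hsp90ab1, the constitutive HSP90 that holds the receptor, was at 426.7 TPM in the WT pool and 407.99 TPM in the KO pool.

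Coregulators of AHR and ARNT lay closer to 0. Of 14 coactivators and corepressors, 0 were past a threshold and 3 were above 0, with a median of -0.03. Ncoa7 was lowest at -0.12.

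Other bHLH-PAS genes, the relatives of AHR and ARNT, spread more widely. Of 13 listed, 5 reached a mean of 1 TPM, and 2 of these were up, beside 1.09% of all genes tested. The genes up were Arntl (0.60, from 10.53 TPM in the WT pool to 16.42 TPM in the KO pool) and Npas2 (0.52, from 0.76 to 1.52 TPM), both of which belong to the circadian clock. Hif1a, the hypoxia factor that pairs with ARNT, was lowest at -0.27, and Epas1, at 72.53 TPM in the WT pool and 64.69 TPM in the KO pool, was more abundant than Ahr in both pools. The median was 0.03 and went to -0.07 with a minimum of 10 TPM.

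Other transcripts known to be induced by AHR ligands in mouse liver were next compared. Of 19 listed, 15 reached a mean of 1 TPM, 0 were up, 0 were down and 4 lay above 0, with a median of -0.12. At the mirror threshold of 0.714, which was applied to the lists after seeing the data, 4 of the 15 were down, beside 1.02% of all genes. Nqo1, the quinone reductase of the classical AHR battery, stood at 4.58 TPM in the WT pool and 4.51 TPM in the KO pool. Aldh3a1, its companion in induced liver, was listed at 0.07 TPM in the WT pool and 0.09 TPM in the KO pool. It has no library mean, so neither value could be tied to estimated reads. Pmm1 was highest at 0.17.

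The genes down at the mirror were Fgf21 (-0.73), Cd36 (-0.64), Cyp2a5 (-0.58) and Gsta1 (-0.50), of which the last 3 were chosen after their values were seen. Fgf21 is a hepatic hormone of fasting, Cd36 takes up fatty acids, Cyp2a5 hydroxylates coumarin and Gsta1 is a glutathione transferase. Fgf21 (5.50 TPM in WT, 2.93 TPM in KO) lay at 0.605-fold, just short of the threshold of 0.6, and was past it with 0.1 TPM added (0.541-fold), with the library means (0.537-fold) and after rescaling without the 50 most abundant genes (0.573-fold). Gsta1 and Cyp2a5 have close paralogs with which reads can be shared. Cyp2a4, the paralog of Cyp2a5, was at 70.88 TPM in the WT pool and 0.22 TPM in the KO pool, and the sum of the pair, taken after seeing the data, was past the threshold at 0.497-fold (275.2 and 136.2 TPM), whereas Cyp2a5 alone was at 0.667-fold.

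Tryptophan breakdown yields kynurenine and other ligands of AHR. Of 7 measured genes, 0 were past a threshold and 5 lay above 0, with a median of 0.03. Tdo2, the hepatic enzyme of the first step, was the lowest at -0.32, with 1819.52 TPM in the WT pool and 1453.23 TPM in the KO pool, and Aadat, which turns kynurenine into kynurenic acid, was the highest at 0.31, with 92.05 TPM in the WT pool and 114.41 TPM in the KO pool.

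Enzymes that act on CYP1 products were compared in the same way. Of 10 genes, 0 were past a threshold and 3 were above 0, with a median of -0.02. The lowest was Gstm1 (-0.44), a glutathione transferase at 1291 TPM in the WT pool and 948.56 TPM in the KO pool. The electron donors of P450 enzymes comprised 4 genes, with a median of 0.01 and 0 past a threshold. Por, the reductase, stood at 178.39 TPM in the WT pool and 179.35 TPM in the KO pool, the gene of the microsomal cytochrome b5 (listed as Cyb5) was highest at 0.12 and Cyb5r3 lowest at -0.20.

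Hepatic factors other than AHR that act on Cyp1a2 gave 0 of 8 past a threshold, 5 above 0 and a median of 0.09. Nr1i3, which encodes the xenobiotic receptor CAR, was highest at 0.20 (72.46 TPM in WT, 83.36 TPM in KO), and Nr1i2, which encodes PXR, was lowest at -0.24 (59.93 and 50.45 TPM).

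The listed transcripts of the pericentral zone, where Cyp1a2 is expressed, lay mostly on the same side as Cyp1a2. This list and the periportal one were chosen with earlier results of these data known and are not complete. Their counts therefore depend on the genes picked. Of 16, 3 were up (beside 1.09% of all genes tested), 15 lay above 0 and the median was 0.18. The genes up were Tbx3 (0.78, from 6.90 to 12.52 TPM), Rnf43 (0.63, from 4.72 to 7.84 TPM) and Rhbg (0.49, from 5.76 to 8.52 TPM), a transcription factor and an E3 ligase that are targets of Wnt signalling and an ammonia transporter. Rhbg, at 1.41-fold, was only just past the threshold of 1.4. Znrf3 was lowest at -0.01.

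Of those 16 pericentral genes, 4 had a larger log2 difference than Cyp1a2. With 0.1 TPM added or with the library means, 5 were up in place of 3. Periportal transcripts lay on the other side, with 12 of 14 below 0 and a median of -0.16, from -0.51 for Sds to 1.12 for G6pc, the 1 gene past 1.4 or 0.6, while Sds was down at the mirror. The part of zonation in the value of Cyp1a2 was not tested. G6pc, the glucose-releasing phosphatase, was at 204.76 TPM in the WT pool and 445.52 TPM in the KO pool.

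**Figure D5:**
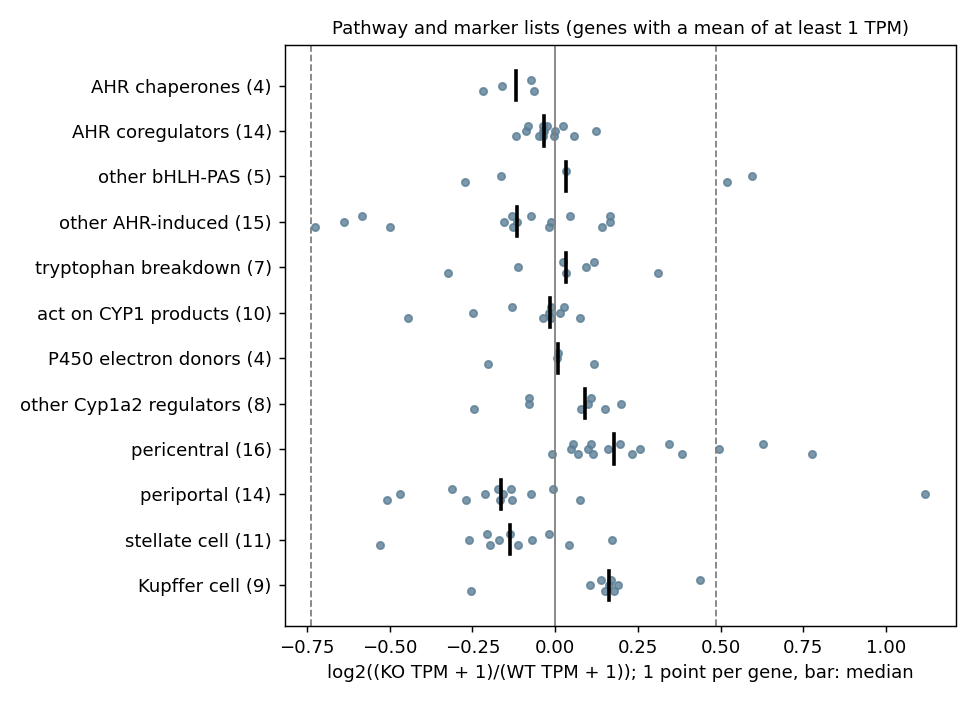
Log2((KO TPM + 1)/(WT TPM + 1)) of each gene whose mean reached 1 TPM, by list, with the number of genes in brackets; black bars are medians and dashed lines folds of 1.4 and 0.6. The pericentral median lies at 0.18 and the periportal one at -0.16, while the AHR-induced list lies at -0.12.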

How the data were processed

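The authors sequenced 1 stranded total RNA library per genotype as paired reads of 100 bases and, per the labels, used CASAVA 1.8.2, Bowtie and RSEM 1.2.09 with mm10. They deposited TPM (RSEM posterior means, with totals of 1005325 for KO and 994702 for WT) and a table from EBSeq. The mean signal per library in that table was made by the authors by dividing estimated reads by a size factor. The means columns were assigned to genotypes by the headings of the same values in the study's supplement. The deposited fold (ratio) columns and the posterior probabilities, given as a fraction, hold the authors' own comparison and were not used.

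The most frequent low value of each mean signal was taken as 1 read. Within a tolerance of 0.02, 78.4% of KO and 75.0% of WT values were whole reads, so no count test was run. Calls used a fold of 1.4 or 0.6 on TPM + 1, and lists used genes whose mean reached 1 TPM. Intervals are at 95%. The members and lists were chosen with earlier results of these data known. Named by rule were Pgrmc1, the members, the highest and lowest gene of each list and every list gene past a threshold, the best-known gene of several lists, the most abundant P450 genes and the 3 nearest to Cyp1a2. Other genes were named after their values were seen. A few genes that this rule would name are not reported here. Older symbols were matched through RefSeq synonyms. Promoters are from RefSeq (GRCm38.p6), and windows and overlaps from GENCODE M21. Calls and intervals were tried on simulated libraries with counting error only and changes of 2-fold or more in genes of at least 10 TPM. Smaller changes, lower levels and the spread between mice were not covered. Scripts ran in Python 3.11.15 with scipy 1.17.1, pandas 2.3.3, numpy 2.4.6 and, for plots, matplotlib 3.10.9.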

Additional observations from a re-analysis of the deposited data

How the results depend on the processing

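No paired analysis was possible because there is a single pool, sequenced as 1 library, for KO and for WT. Other settings added 0.1 TPM in place of 1, used the library means, centred all genes or rescaled without the 50 most abundant genes. In each of them 0 of 7 members were past 1.4 or 0.6. In the main setting, 0 of 7 were past 2, 0.5 or the mirror of 0.714. In that setting Cyp1b1 and Ahrr were too low to be called down at 0.6 or 0.5, and Ahrr at the mirror. The mirror was counted for the members in the main setting only. Cyp1b1 lay beyond it with 0.1 TPM added (-0.50 on the log2 scale) and with the library means (-0.64). Cyp1a2 stayed between 0.34 and 0.36, also summed with Cyp1a1 (chosen after seeing the data), and Tiparp between -0.28 and -0.21. Arnt ran from -0.01 to 0.01 and changed sign with the library means and after centring.

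The difference of Cyp1b1 was -0.50 with 0.1 TPM added and -0.64 with the library means, and that of Pgrmc1, at -9.14 in the main setting, was -10.25, -10.44 and, after rescaling, -9.64. The bHLH-PAS median was -0.0656 at a minimum of 10 TPM. The counts over all genes, 127 up and 35 down, were 266 and 70 with 0.1 TPM added and 286 and 72 with the library means. They were 31 and 13 with thresholds of 2 and 0.5, and 48 and 17 at a minimum of 10 TPM. With 1.4 and its mirror, 118 were down, and genes up made 51.8% of calls in place of 78.4%, while 4 of the 15 AHR-induced genes were down in place of 0 (a count added after seeing the data). With TNGCGTG in place of GCGTG, 1 member window, that of Ahrr, held the element in place of 5, beside 4.10% of all windows. The 1 TPM added in the main setting shrinks differences between low levels, and 1.4 and 0.6 are not symmetric on the log2 scale. The minimum of 10 TPM leaves out Npas2, whose mean was 1.14 TPM. How much of each move comes from these settings was not tested. Depth limits Cyp1a1, Cyp1b1 and Ahrr, and pooling limits the abundant genes.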

Other observations

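The genes beside the Cyp1a pair were looked at after the values were seen. Within 200 kb on either side, 12 other genes are in the table and 9 reach a mean of 1 TPM. Their log2 differences ran from -0.21 for Scamp2, a membrane trafficking gene, to 0.16 for Fam219b, and 4 of 9 lay above 0. None was past a threshold. The nearest on the Cyp1a2 side, Csk, a kinase that restrains Src family kinases, was at 36.41 TPM in the WT pool and 37.66 TPM in the KO pool, and Edc3, an mRNA decapping factor on the Cyp1a1 side, was at 6.91 TPM in both.

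Markers of other liver cells differed in direction. Of 9 Kupffer cell markers, 8 lay above 0 with a median of 0.16, from -0.26 for Cd68 to 0.44 for Folr2, while all 8 sinusoidal endothelial markers lay below 0 with a median of -0.10, from -0.60 for Lyve1 to -0.01 for Stab1. The hepatocyte list had a median of -0.06, from -0.28 for Tat to 0.09 for Fgb. The bile duct list had a median of -0.12 over 4 genes, with Epcam lowest at -0.59, and 2 of its 6 listed genes lay below the filter. Leukocyte markers were near the limit of detection, with 2 of 8 past the filter, S100a8 (0.01) and S100a9 (0.36), both neutrophil genes. Over all 8 the median was 0.03 and 5 lay above 0, and Nkg7, a gene of cytotoxic lymphocytes, was listed at 1.08 TPM in the WT pool on 12 estimated reads and at 0.11 TPM in the KO pool on 0. The stellate list ran from -0.53 for Rgs5 to 0.17 for Lrat. Of the genes that passed the filter, none was past 1.4 or 0.6, but Lyve1, Epcam and Rgs5 were down at the mirror threshold of 0.714. In addition, Folr2 and S100a9 were up with the library means, and Epcam was down with them, with 0.1 TPM added and after rescaling.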
